A study of Rattus norvegicus with 9 samples.

Results

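Transcription factors that mark excitatory neurons of the hippocampus were followed through exposure to ketone bodies. They are 7 genes of the 14217 named singly on the array: Neurod1, Neurod2, Neurod6, Tbr1, Prox1, Bcl11b and Mef2c. Every probe set of the rat array annotated to 1 of these symbols alone was taken, which gave 11 of the 31042 probe sets that are not array controls. Signal was measured on 9 arrays of total RNA from Rattus norvegicus hippocampus, 3 per group, and the sample descriptions speak of hippocampal neurons. The groups were ketone bodies for 1 h, ketone bodies for 6 h, and a control in artificial cerebrospinal fluid with no ketone bodies. The labels do not name the ketone bodies or their dose, the strain, sex or age of the rats, or whether the RNA came from cultured cells or tissue. They give no exposure time for the control, and they do not say that the arrays of a group came from separate animals. Each p here therefore weighs a difference against the spread between these arrays, which may be technical.

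These genes encode proteins that set and maintain the identity of glutamatergic neurons. NEUROD1, NEUROD2 and NEUROD6 are basic helix-loop-helix (bHLH) factors that bind E-boxes (CANNTG) as dimers with E proteins such as TCF12 and TCF4. They drive neuronal differentiation, and in mouse NEUROD1 is needed for the granule cells of the dentate gyrus. TBR1 is a T-box factor of early-born cortical projection neurons. PROX1 is the homeodomain factor that distinguishes dentate granule cells from pyramidal cells, and BCL11B (also called CTIP2) is a zinc finger factor of granule cells, CA1 pyramidal cells and deep cortical neurons. MEF2C is a MADS-box factor that calcium signalling regulates and that limits the number of excitatory synapses.

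RefSeq promoter windows (build GRCr8, 250 bases before to 50 after the start of transcription) were given for 4 of the 7 genes. Windows of 3 genes are printed, because these are the genes among the 4 with at least 1 exposure time at which no ketone array overlapped a control array. Capitals mark each CANNTG, the E-box that the NEUROD proteins themselves can bind. The windows are chr3:84770405-84770704 for Neurod1 (minus strand), chr4:86180106-86180405 for Neurod6 (minus strand) and chr3:66759553-66759852 for Tbr1 (plus strand), each written 5′ to 3′ on the strand of its gene.
Neurod1: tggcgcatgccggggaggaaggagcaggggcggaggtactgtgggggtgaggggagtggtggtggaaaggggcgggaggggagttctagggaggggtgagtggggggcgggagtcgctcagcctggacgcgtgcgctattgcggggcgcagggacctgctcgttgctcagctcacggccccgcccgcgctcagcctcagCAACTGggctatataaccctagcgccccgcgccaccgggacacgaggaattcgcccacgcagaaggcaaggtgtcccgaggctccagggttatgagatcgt
Neurod6: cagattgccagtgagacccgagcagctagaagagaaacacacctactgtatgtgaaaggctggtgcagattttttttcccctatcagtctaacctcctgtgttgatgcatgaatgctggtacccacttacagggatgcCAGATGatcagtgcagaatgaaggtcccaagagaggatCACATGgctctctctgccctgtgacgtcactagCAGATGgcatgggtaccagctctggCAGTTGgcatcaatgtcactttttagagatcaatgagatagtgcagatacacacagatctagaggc
Tbr1: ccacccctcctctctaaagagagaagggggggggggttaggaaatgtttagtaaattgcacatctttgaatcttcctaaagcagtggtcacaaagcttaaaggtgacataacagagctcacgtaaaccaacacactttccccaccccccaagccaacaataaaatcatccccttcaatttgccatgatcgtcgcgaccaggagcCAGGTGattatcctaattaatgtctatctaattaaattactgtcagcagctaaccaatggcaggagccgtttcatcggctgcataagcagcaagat
The Neurod6 window held 4 E-boxes, the Neurod2 window 3, and those of Neurod1 and Tbr1 held 1 each. At least 1 CANNTG was found in 72.1% of the 33469 rat promoter windows of this length, and at least 4 in 5.79%. The form CAGATG, searched on both strands and contained within CANNTG, occurred 2 times for Neurod6 and 1 time for Neurod2, and in 16.6% of all windows. The T-box core GGTGTGA, also searched on both strands, was not found in any of the 4 windows and occurred in 3.83% of all windows. A match here describes letters in a window and is not a measured binding site.

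Values are the deposited linear signals, in the unit of the array scanner's summary per probe set. Log2 changes come from quantile-normalized log2(signal + 16) and a limma fit over the 18625 probe sets whose mean was at or above log2 5.21, a signal of about 21.0. Of the 11 member probe sets, 10 passed that filter. The number of arrays limits the precision, and the correlation between arrays of 1 group (0.949 to 0.987) spanned about the same range as that between groups (0.945 to 0.988). Arrays ketone_1h 3 and ketone_6h 1 lay farthest out on the first principal component, which held 45.0% of the variance. The log2 ratio of 3' to 5' signal for beta-actin, which is higher where RNA is more degraded or labelled copies are shorter, was 1.38, 2.13 and 2.00 at 1 h, 2.55, 1.90 and 1.02 at 6 h, and 1.36, 1.26 and 1.41 in control. By exact 2-sided permutation tests this ratio gave p = 0.2 at 1 h and p = 0.4 at 6 h against control, where 0.1 is the smallest p possible. The same ratio for GAPDH was 0.06, 0.14 and 0.12 at 1 h, 0.46, 0.07 and 0.04 at 6 h, and 0.13, 0.02 and 0.24 in control. For GAPDH the permutation tests gave p = 0.8 at 1 h and p = 0.8 at 6 h, so the 1 h arrays were not higher by this measure. Excitatory markers were bright in control (Slc17a7, the vesicular glutamate transporter, at a mean of log2 11.26). So were the oligodendrocyte marker Mbp (12.62) and the astrocyte marker Gfap (10.96), so the RNA labelled as neuronal also held glial transcripts.

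After 1 h of ketone bodies, the 10 tested probe sets all had negative log2 changes, with a median of -0.56 and a range from -1.35 to -0.02. In the same comparison 44.7% of all tested probe sets were negative and the median of all was 0.03. Every 1 h array lay below every control array for 6 of the 10: those of Neurod1 and Tbr1, the brighter Prox1 probe set, and the 3 of Bcl11b. That separation was met by 8.26% of all tested probe sets. The 3 probe sets of Bcl11b share a gene, as do the 2 of Mef2c, so the 10 are not independent. For the brightest of Bcl11b the gap was small, with log2 8.62 on ketone_1h 1 against 8.63 on control 2. The dimmest Bcl11b probe set passed the filter only through its 6 h and control arrays; without it, in counts added after seeing the data, 9 of 9 were negative at 1 h, 5 did not overlap and 5 were lower at an unadjusted p under 0.05. None of the members passed an adjusted p of 0.05 (Benjamini-Hochberg over 18625 probe sets, limma), the lowest being 0.335 for Prox1. Over all probe sets 0.0322% passed: 4 higher and 2 lower, with 5 and 4 on the deposited scale and 6 and 3 with arrays centred on their medians. At an unadjusted p under 0.05, the same 6 member probe sets were lower and 0 were higher, beside 4.67% lower and 6.68% higher among all tested probe sets. Without control 3 or without ketone_1h 3 this count was 3, and over all arrays left out in turn it ran from 3 to 7.

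After 6 h the 10 tested probe sets were again negative against control, with a median of -0.33 and a range from -1.29 to -0.03, where 46.2% of all tested probe sets were negative. Both exposure times were compared with the same control arrays, so the shared sign is not a second observation. Only Neurod6 had every 6 h array below every control array on the normalized scale, a separation met by 3.15% of all probe sets tested. By limma, 0 member probe sets passed at 6 h (lowest adjusted p = 0.987), beside 0.0268% of all probe sets, and 2 (Neurod6 and Tbr1) were lower at an unadjusted p under 0.05, beside 1.47%. That unadjusted count was 1 without control 2, without control 3 or without ketone_6h 1, and 3 without ketone_6h 3. In bulk RNA, fewer cells of a type and less RNA per cell cannot be told apart for any of these genes.

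**Figure D1:**
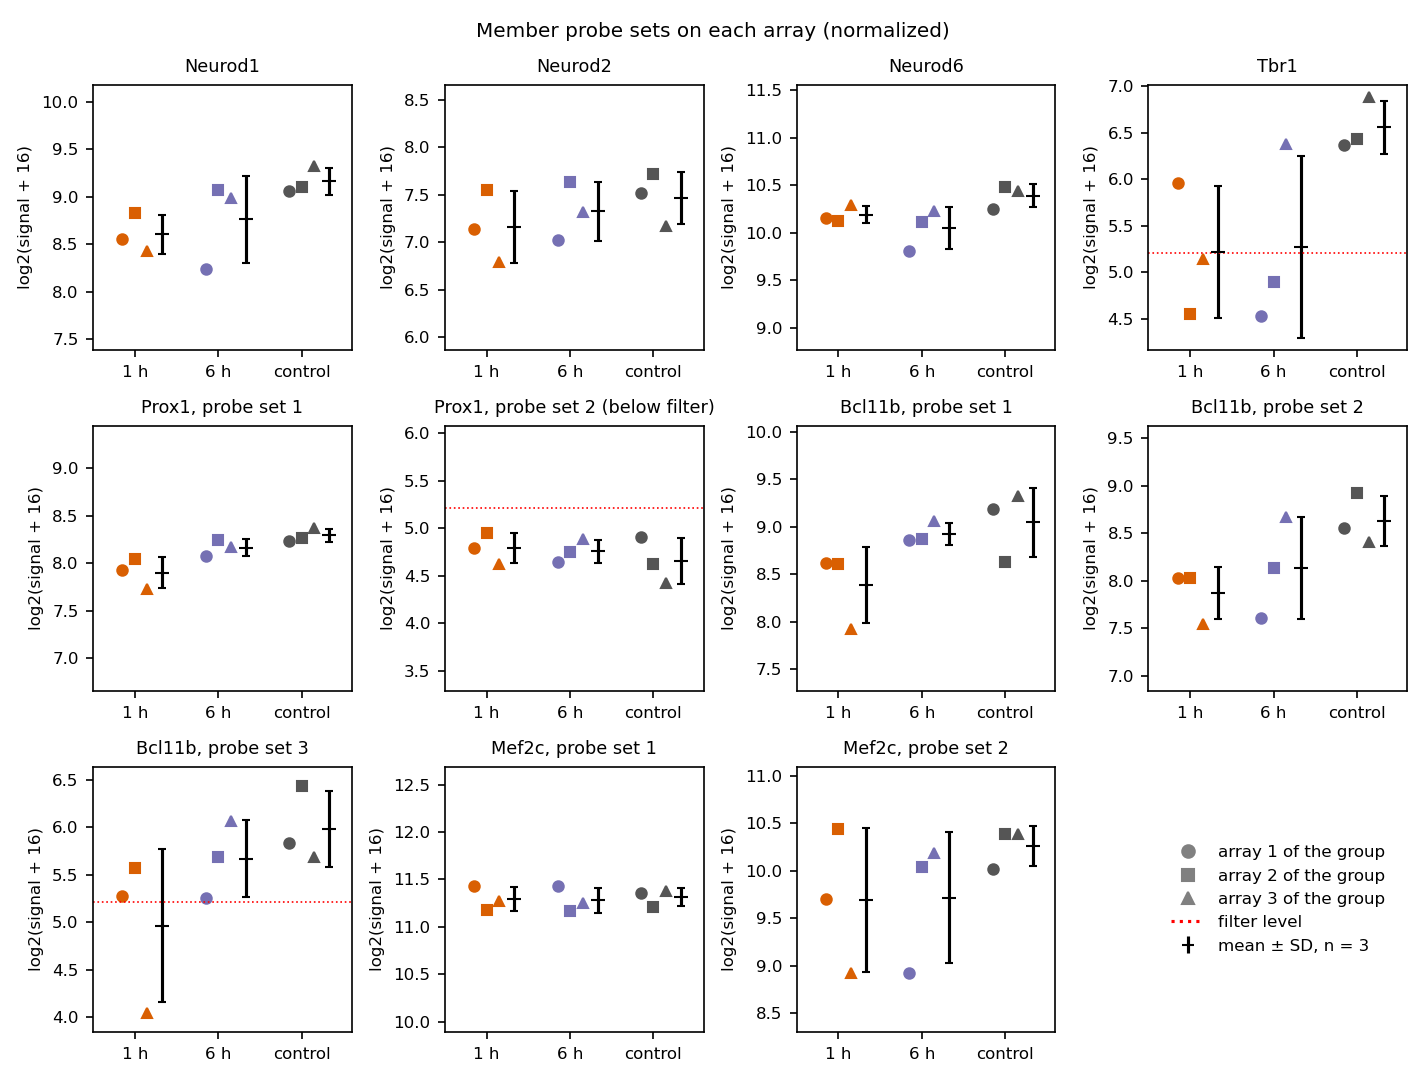
Normalized log2(signal + 16) of the 11 member probe sets on each array, by group (1 h, 6 h, control), each panel spanning at least 2.8 log2 units. Symbols give the array number, black bars the mean ± SD (n = 3), and the red dotted line the filter level of log2 5.21. The control mean is the highest of the 3 for Tbr1, where array 3 at 6 h reaches the control range, and the brighter Mef2c probe set is level across groups.

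Neurod1 (probe set 1387288_at) had signals of 359.8, 438 and 326 at 1 h, 291, 515 and 485 at 6 h, and 517, 528 and 619.7 in control. The 1 h arrays were all below the control arrays, and at 6 h array 1 was far lower than the other 2. Those 2 sat just under the control range as deposited, while on the normalized scale Neurod1 on ketone_6h 2 lay within it (log2 9.07 against 9.06 on control 1). Its log2 change at 1 h was -0.55 ± 0.21 (SE, n = 3 arrays per group here and below; 95% interval -1.01 to -0.10; limma adjusted p = 0.391). At 6 h it was -0.40 ± 0.21 (95% interval -0.85 to 0.06; limma adjusted p = 0.987), and without ketone_6h 1 alone it was -0.14.

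Neurod2 (probe set 1387577_at), a factor of cortical and hippocampal projection neurons, gave 124, 169 and 91.1 at 1 h, 111, 180.1 and 147 at 6 h, and 169.9, 197 and 132 in control. Its groups overlapped, with 1 h array 3 lowest. The log2 changes were -0.31 ± 0.23 at 1 h and -0.14 ± 0.23 at 6 h, with 95% intervals of -0.81 to 0.20 and -0.65 to 0.36. Without ketone_1h 3 the 1 h change was -0.12, without ketone_1h 2 it was -0.50 and without control 2 it was -0.18. At 6 h the change ran from -0.30 to 0.0099 over arrays left out in turn, the highest without ketone_6h 1.

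Neurod6 (probe set 1393408_at), expressed in mature pyramidal neurons, gave 1138, 1126 and 1249 at 1 h, 908, 1100.4 and 1167 at 6 h, and 1193, 1365 and 1318 in control. It was the NEUROD member with the least spread between arrays, and every 6 h array was under the lowest control array. The 6 h log2 change was -0.34 ± 0.11 (95% interval -0.60 to -0.09; limma adjusted p = 0.987; -0.22 without ketone_6h 1), and the 1 h change was -0.20 ± 0.11 (95% interval -0.46 to 0.05). Neurod6 was lowest at 6 h while Neurod1 was lowest at 1 h, but 6 h against 1 h gave -0.14 ± 0.11 for Neurod6 and 0.16 ± 0.21 for Neurod1, both with a limma adjusted p of 0.996.

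Tbr1 (probe set 1375539_at) had signals of 45.6, 6.85 and 19.4 at 1 h, 5.69, 14.7 and 71.2 at 6 h, and 68.4, 73.6 and 107 in control. All 1 h arrays were below control, while at 6 h array 3 lay within the control range and the other 2 were low. Tbr1 had log2 changes of -1.35 ± 0.47 at 1 h (95% interval -2.39 to -0.31; limma adjusted p = 0.381) and -1.29 ± 0.47 at 6 h (95% interval -2.33 to -0.25; limma adjusted p = 0.987). In the main fit, with a pseudocount of 16, these were the most negative changes of the member probe sets. On 4 of the 6 ketone arrays the signal was under the filter level of 21.0, so the size depends on the pseudocount: at 1 h it was -1.99 with a pseudocount of 1 and -0.72 with 64, and at 6 h -1.98 and -0.67. With the beta-actin 3'/5' ratio as a covariate, chosen after seeing the data, the Tbr1 changes were -0.70 ± 0.25 at 1 h and -0.67 ± 0.25 at 6 h. The Tbr1 signal was lowest on the arrays where that ratio was high: ketone_6h 1 and ketone_1h 2 had the highest ratios and the lowest Tbr1 signals. The part of RNA quality in the Tbr1 difference was not tested beyond these values.

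Genes that TBR1 is known to activate in mouse were measured too. Reln, which encodes the secreted guidance protein reelin, had a log2 change of -0.40 ± 0.11 at 1 h (limma adjusted p = 0.335) and -0.11 ± 0.11 at 6 h. Grin2b, a subunit of the NMDA receptor, had -0.79 ± 0.33 at 1 h (limma adjusted p = 0.419) and -0.38 ± 0.33 at 6 h. Its dimmer probe set pointed the other way, with 0.31 ± 0.15 at 1 h and 0.44 ± 0.15 at 6 h.

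Prox1 was read by 1 usable probe set. Probe set 1376672_at gave 227, 247 and 192 at 1 h, 257, 285 and 273 at 6 h, and 286, 294 and 315 in control. On the normalized scale the 1 h arrays lay below all others, while the 6 h and control arrays overlapped (log2 8.25 on ketone_6h 2 against 8.24 on control 1). As deposited, the 6 h arrays lay between the 1 h and control arrays without overlap. That gap to control was narrow, with 285 on ketone_6h 2 against 286 on control 1, and the share of all probe sets with such an order was not counted. The log2 change at 1 h was -0.39 ± 0.11 (95% interval -0.64 to -0.14; limma adjusted p = 0.335), and at 6 h it was -0.13 ± 0.11 (95% interval -0.38 to 0.12; -0.082 without ketone_6h 1). The second probe set, 1381417_at, had signals of 7.13 to 14.4 on the ketone arrays and 6.16 to 13.5 in control, all under the filter level, and was not tested. Without the filter its changes would be 0.14 at 1 h and 0.11 at 6 h, which set no level against the brighter probe set.

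Bcl11b had 3 probe sets, which share a gene and are not independent. Probe set 1384944_at gave 375, 376 and 222 at 1 h, 457, 446 and 513 at 6 h, and 565, 381 and 618 in control. Probe set 1391948_at gave 244, 244 and 168 at 1 h, 178, 261 and 389 at 6 h, and 363, 464 and 322 in control. The dimmest, 1378520_at, gave 22.0, 29.9 and 0.608 at 1 h, 18.7, 35.8 and 54.0 at 6 h, and 41.8, 73.7 and 38.7 in control. In each of the 3, all 1 h arrays were below all control arrays and 1 h array 3 was the lowest of the 9 arrays. The 1 h log2 changes were -0.66 ± 0.22, -0.76 ± 0.25 and -1.02 ± 0.38 in that order (limma adjusted p of 0.365, 0.378 and 0.391). At 6 h they were -0.12 ± 0.22, -0.49 ± 0.25 and -0.31 ± 0.38, with overlap in each. Without ketone_1h 3 the 1 h change was -0.43 for 1384944_at and -0.56 for 1378520_at. At 6 h single arrays moved all 3: over arrays left out in turn, 1384944_at ran from -0.33 without control 2 to 0.018 without control 3, 1391948_at from -0.76 without ketone_6h 3 to -0.23 without ketone_6h 1, and 1378520_at from -0.51 without ketone_6h 3 to -0.089 without control 2. The size of the dimmest depends on the pseudocount, since its 1 h mean of log2 4.97 was under the filter level. Over the alternative settings its 1 h change ran from -2.17 to -0.46, where that of Tbr1 ran from -1.99 to -0.70.

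Mef2c gave the widest disagreement between probe sets of 1 member. Probe set 1372332_at, the brightest of the 11, gave 2771, 2412 and 2674 at 1 h, 2707, 2356 and 2329.8 at 6 h, and 2531, 2253 and 2531 in control. Its log2 changes were -0.02 ± 0.09 at 1 h (95% interval -0.22 to 0.18) and -0.03 ± 0.09 at 6 h (95% interval -0.23 to 0.17), and the sign turned with the scaling: at 1 h it was 0.10 with the values as deposited and 0.21 with arrays centred on their medians. Probe set 1373410_at gave 825, 1411 and 474 at 1 h, 479, 1042 and 1139.5 at 6 h, and 1015, 1286 and 1279 in control. Arrays ketone_1h 3 and ketone_6h 1 were far below the other 7, and ketone_1h 2 was the highest of all 9. Its changes were -0.57 ± 0.39 at 1 h and -0.55 ± 0.39 at 6 h, with 95% intervals of -1.44 to 0.29 and -1.41 to 0.32. Its 1 h change was -0.19 without ketone_1h 3 and -0.95 without ketone_1h 2, and its 6 h change was -0.15 without ketone_6h 1.

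**Figure D2:**
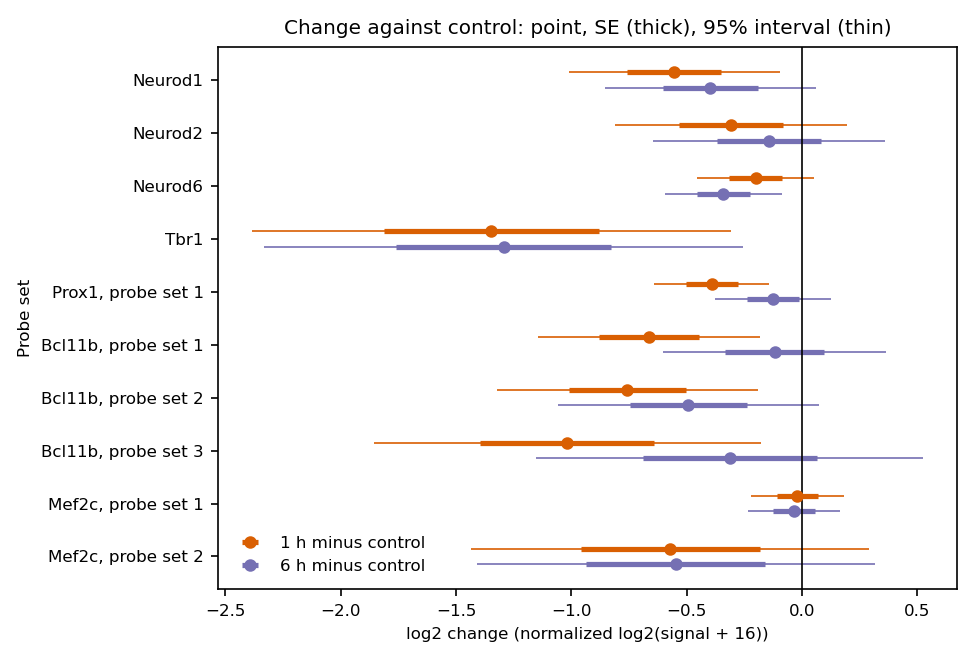
Log2 change against control for the 10 tested member probe sets, with SE (thick bars) and 95% interval (thin bars), 1 h above 6 h. Points run from -1.35 to -0.02 at 1 h and from -1.29 to -0.03 at 6 h, and the interval at 1 h stays under 0 for 6 probe sets.

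The low values were unevenly spread over the ketone arrays. Array ketone_1h 3 gave the lowest of the 9 values for 6 of the 10 tested probe sets, ketone_6h 1 for 3 and ketone_6h 2 for 1. Over all tested probe sets these arrays were lowest for 12.2%, 12.8% and 10.6%. The median difference from the control mean was -0.49, -0.30 and -0.91 on the 1 h arrays and -0.65, -0.20 and -0.10 on the 6 h arrays. The number of member probe sets below the lowest control array was 9, 8 and 8 of 10 at 1 h, and 8, 4 and 3 of 10 at 6 h, where 23.2% to 27.3% of all tested probe sets lay there on each ketone array. Array ketone_6h 3, with the lowest beta-actin 3'/5' ratio, was the nearest to control at 6 h. Array ketone_1h 1, with a ratio of 1.38, had 9 of 10 member probe sets below the lowest control array. The part of RNA quality in these counts was not tested. Without ketone_1h 3 and ketone_6h 1, an alternative chosen after seeing the data, all 10 changes at 1 h were still negative and 9 of 10 at 6 h.

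**Figure D3:**
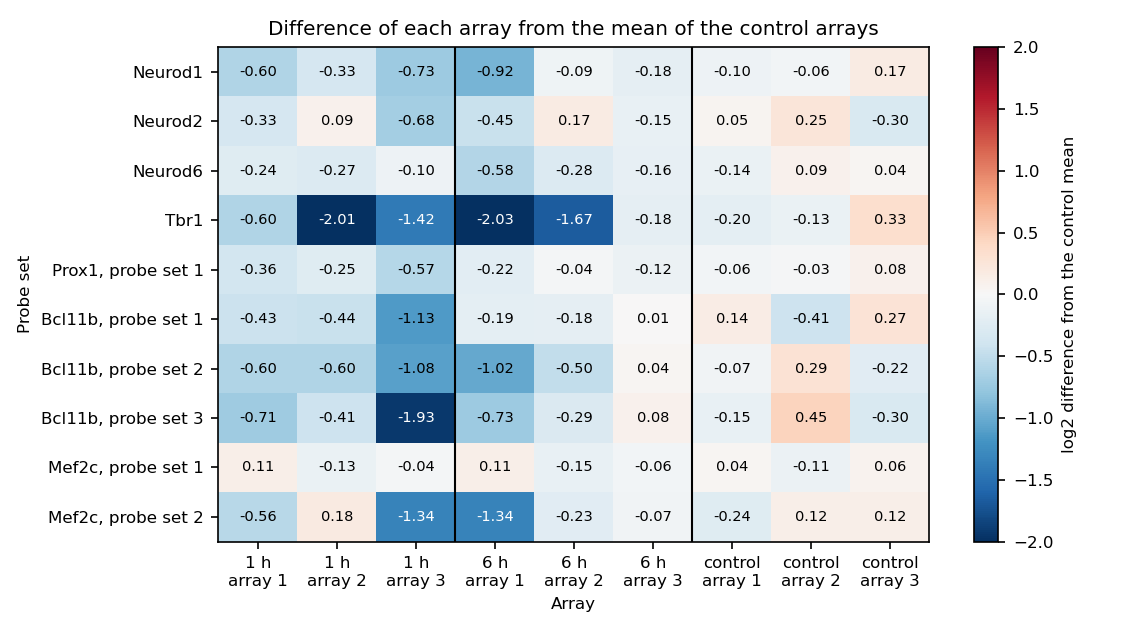
Log2 difference of every array from the mean of the 3 control arrays, for the 10 tested member probe sets (rows) on the 9 arrays (columns). Blue is lower and red higher, and the darkest cells are Tbr1 on ketone_6h 1 (-2.03) and ketone_1h 2 (-2.01) and the dimmest Bcl11b probe set on ketone_1h 3 (-1.93).

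Set directly against 1 h, the 6 h values were higher for 8 of 10 member probe sets (47.0% of all tested), with a median of 0.16. Every 6 h array was above every 1 h array for 2 of them, which held for 3.55% of all tested probe sets, and the same 2 were higher at an unadjusted p under 0.05, beside 1.31%. These were the brightest of Bcl11b (0.55 ± 0.22, 95% interval 0.06 to 1.03) and Prox1 (0.27 ± 0.11, 95% interval 0.01 to 0.52). By limma, 0 member probe sets passed (lowest adjusted p = 0.996), and 0 of 18625 did (0%), with 507 at an unadjusted p under 0.05. So no difference between the exposure times was detected at 3 arrays per group. For Tbr1 the difference of 0.05 ± 0.47 had a 95% interval of -0.99 to 1.09, which is too wide to tell the times apart.

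Partners and relatives of these factors were taken from lists, with 1 probe set per gene, the brightest. The median over all genes was 0.066 at 1 h and 0.037 at 6 h, and 36.5% and 38.7% of genes were negative. Where a share of all tested probe sets stands beside a list below, it covers 18625 probe sets and not 1 per gene. The unit is then unlike that of the list. By limma no gene of these lists passed an adjusted p of 0.05 in any comparison, so all values below are descriptions. Of the members' paralogs, 4 of 9 on the array were tested, and 2 of the 4 were negative at 1 h. Bhlhe22, a bHLH factor of the same class in projection neurons, had -0.37 ± 0.11 with no overlap at 1 h and -0.21 ± 0.11 at 6 h. Mef2a, a second MEF2 factor of neurons, had -0.31 ± 0.13 at 1 h, and its other 3 probe sets gave -0.51 ± 0.18, -0.88 ± 0.54 and -1.08 ± 0.65. At 6 h its brightest probe set had 0.006 ± 0.13 and the other 3 gave -0.32, -0.45 and -0.39. Mef2d had 0.13 ± 0.14 at 1 h, while its dimmer probe set had -0.32 ± 0.32. Bcl11a, the relative of Bcl11b, had 0.09 ± 0.10 at 1 h and 0.16 ± 0.10 at 6 h, while its dimmer probe set had -0.52 ± 0.13 and -0.28 ± 0.13.

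Among bHLH partners and inhibitors 7 of 11 were negative at 1 h (median -0.04). Tcf12, an E protein that pairs with NEUROD factors, had -0.47 ± 0.14 at 1 h without overlap, and -0.61 ± 0.24 in its dimmer probe set. Hey2 and Hes6, a repressor and a relative of the HES repressors in the Notch pathway, had 0.31 ± 0.11 and 0.36 ± 0.12 at 1 h, and at 6 h 0.43 ± 0.11 and 0.22 ± 0.12. Hes5, a Notch target that opposes proneural factors, had -0.51 ± 0.17 at 6 h. Cofactors of MEF2 and BCL11B had 6 of 13 negative at 1 h (median 0.03): the calcineurin catalytic subunits Ppp3ca and Ppp3cb had -0.25 ± 0.12 and -0.19 ± 0.08, and the deacetylase Hdac1 had 0.33 ± 0.18. At 6 h the kinase Mapk14 had 0.19 ± 0.14.

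Other factors of the pyramidal and granule cell lineages had 16 of 21 negative at 1 h (median -0.15) and 12 of 21 at 6 h (median -0.03). At 1 h 3 of the 21 were lower at an unadjusted p under 0.05 and 0 were higher, beside 4.67% lower and 6.68% higher of all tested probe sets. These were the nuclear factor I genes Nfia (-1.05 ± 0.39) and Nfib (-0.77 ± 0.24), both without overlap, and Klf7 (-0.32 ± 0.13). The other probe sets of Nfia gave -0.82 and -0.93, and that of Nfib -1.003. At 6 h Nfib had -0.47 ± 0.24 and Emx2, a homeodomain factor of the cortical primordium, 0.29 ± 0.21.

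**Figure D4:**
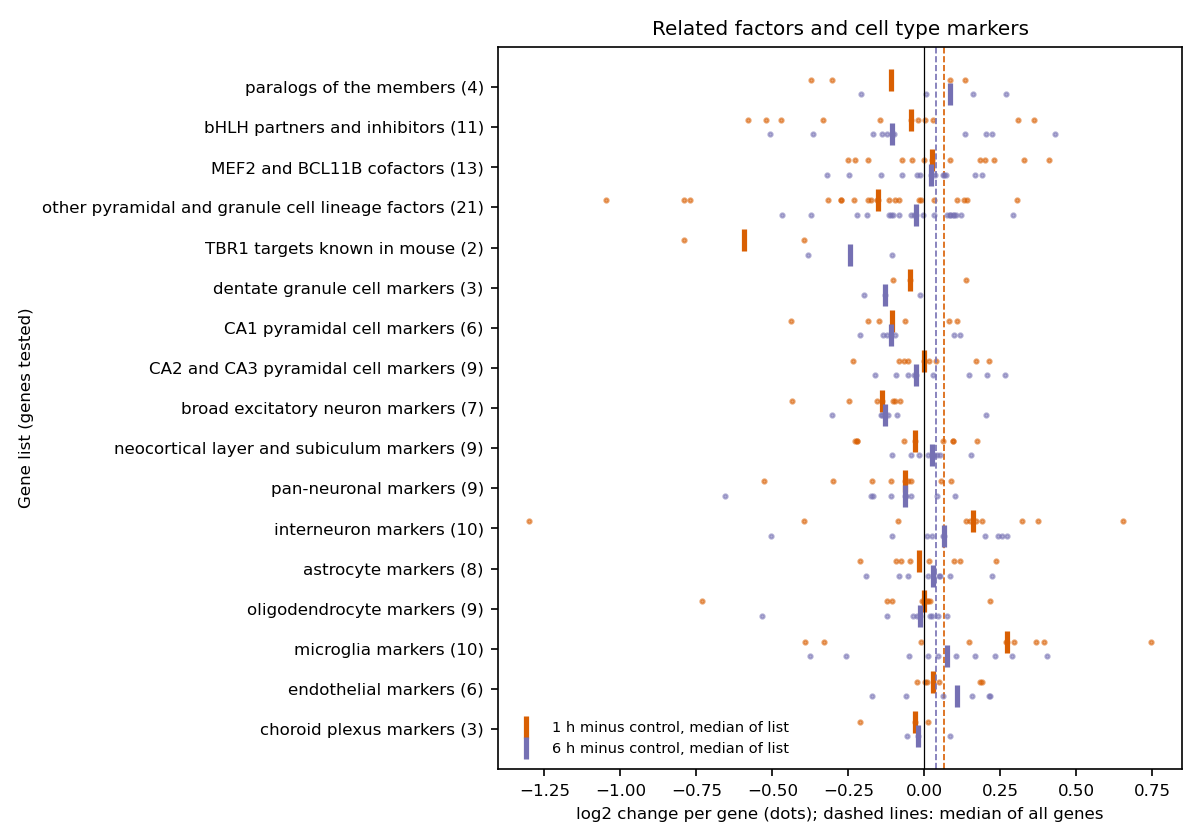
Log2 change against control per gene (dots) and the median of each list (vertical marks), 1 h above 6 h, for the lists of related factors and cell type markers, with the number of genes tested in brackets. Dashed lines give the median of all genes (0.066 at 1 h, 0.037 at 6 h). The lineage factors and excitatory markers have medians under 0, and interneuron and microglia markers have medians above the all-gene line at 1 h.

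Markers of the cells that carry these factors were read beside them. The 7 broad excitatory markers were all negative at 1 h (median -0.14; the kinase subunit Camk2a -0.44 ± 0.14, the synaptic scaffold Baiap2 -0.25 ± 0.11, the calmodulin-binding Nrgn -0.10 ± 0.07), and 6 of 7 at 6 h (Slc17a7 -0.30 ± 0.17, Sv2b 0.20 ± 0.14). Their summed normalized signal was 12680 to 13301 at 1 h, 12697 to 14459 at 6 h and 14058 to 15077 in control. The dimmer Sv2b probe set had -0.43 ± 0.30 at 1 h and -0.24 ± 0.30 at 6 h. Baiap2 was not uniform over its probe sets either. The next brightest had 0.07 ± 0.23 at 1 h and 0.17 ± 0.23 at 6 h, and the dimmest had -0.16 ± 0.25 and 0.16 ± 0.25. Markers of CA1 cells had 4 of 6 negative at 1 h, with a median of -0.11 (Gpr161 -0.44 ± 0.17, Wfs1 -0.18 ± 0.17, Man1a1 -0.15 ± 0.13, Mpped1 0.08 ± 0.11). Those of CA2 and CA3 cells had 5 of 9 negative (Amigo2 0.21 ± 0.16, Grik4 0.17 ± 0.13, Cpne4 -0.23 ± 0.23, Coch -0.07 ± 0.12). CA1 sums were 2639 to 3240 at 1 h, 2876 to 3171 at 6 h and 2871 to 3282 in control. CA2 and CA3 sums were 4994 to 5931, 5277 to 5846 and 5584 to 5708 in that order. For dentate granule cells, whose identity factor Prox1 is, only 3 of 6 markers on the array passed the filter: at 1 h Calb1 had 0.14 ± 0.08, Rasl10a -0.05 ± 0.13 and Trpc6 -0.10 ± 0.11. Granule cell sums were 1908 to 2005 at 1 h, above the 1803 to 1883 in control without overlap, and 1657 to 1888 at 6 h. Markers of neocortical layers and subiculum, regions next to the hippocampus where Tbr1 is strongly expressed, had 5 of 9 negative at 1 h (median -0.03; Nr4a2 -0.22 ± 0.14, Lamp5 0.17 ± 0.13, Foxp2 -0.23 ± 0.22, Nxph4 -0.22 ± 0.22, Fn1 -0.07 ± 0.11). Their summed signal was 2689 to 3190 at 1 h, 2731 to 2846 at 6 h and 2684 to 2856 in control.

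Markers of other cell types were measured beside these. Interneuron markers had 7 of 10 positive and 3 negative at 1 h (median 0.16), near the 36.5% negative among all genes. Parvalbumin (Pvalb) had 0.65 ± 0.13 (limma adjusted p = 0.242) and somatostatin (Sst) 0.37 ± 0.07 (limma adjusted p = 0.250), both without overlap, and Vip 0.32 ± 0.10. Separation above control at 1 h was met by 13% of all tested probe sets. Of the interneuron markers 3 were higher and 2 lower at an unadjusted p under 0.05, beside 6.68% higher and 4.67% lower of all tested probe sets. The lower ones were Reln, given above, and Gad2, an enzyme of GABA synthesis named after its values were seen (-1.30 ± 0.51). Their summed signal was 10494 to 10820.1 at 1 h, 10265 to 10355 at 6 h and 9676 to 9892 in control. Microglia markers had 7 of 10 positive and 3 negative at 1 h, again near the 36.5% negative among all genes. Their median was 0.27 (Aif1 0.75 ± 0.17, Tyrobp 0.39 ± 0.14, C1qa 0.30 ± 0.11), with sums of 1608 to 1726 at 1 h, 1520.004 to 1619.8 at 6 h and 1447 to 1611 in control. P2ry12, a receptor of resting microglia, had -0.33 ± 0.13 at 1 h and -0.31 ± 0.13 in its dimmer probe set. It was the only one of the 10 lower at an unadjusted p under 0.05, where 3 were higher. Among all tested probe sets 4.67% were lower and 6.68% higher. Astrocyte markers had 4 of 8 negative at 1 h (Gja1 -0.21 ± 0.06, its dimmer probe set -1.71 ± 0.69, S100b 0.10 ± 0.06, Aldh1l1 0.24 ± 0.22, Slc1a2 -0.08 ± 0.13, its dimmer probe set 0.06 ± 0.22), and oligodendrocyte markers 5 of 9 (Olig2 -0.73 ± 0.37, Mobp -0.12 ± 0.06, Sox10 0.22 ± 0.22, Mag -0.11 ± 0.14). Astrocyte sums were 17564 to 18560.1 at 1 h, 17386 to 19345 at 6 h and 17898 to 19069.8 in control, and oligodendrocyte sums were 23027 to 23946 at 1 h, 23139 to 24841 at 6 h and 23433 to 24061 in control. Pan-neuronal markers had 7 of 9 negative at 1 h (median -0.06; Map2 -0.30 ± 0.13, Rbfox3 -0.17 ± 0.11, Snap25 -0.06 ± 0.05, Nefl -0.06 ± 0.06). Pan-neuronal sums were 22373 to 23017 at 1 h, 21995 to 23982 at 6 h and 22967 to 24638 in control. Endothelial markers had a median of 0.03 over 6 genes (Cldn5 0.18 ± 0.10, Flt1 0.19 ± 0.26, its dimmer probe set -0.11 ± 0.15, Pecam1 0.05 ± 0.20, Kdr -0.03 ± 0.15). Choroid plexus markers had -0.03 over 3 genes (Ttr -0.21 ± 0.06, Folr1 -0.03 ± 0.15, Prlr 0.01 ± 0.20, its dimmer probe set -0.28 ± 0.18). At 1 h endothelial sums (828 to 833) lay above control (715 to 805) and choroid plexus sums (3816 to 4199) below control (4625 to 4756). At 6 h they were 783 to 924 and 4443 to 4764. The part of cell makeup in the members' values was not tested.

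Genes whose pattern over the 9 arrays was most like a member's were taken by Pearson's r on the member's brightest probe set, as a description that rests on 9 shared arrays. Neurod1 was followed most closely by Mdga2 (r = 0.986), C1galt1 and Dpy19l1, Neurod2 by Pdp2 (0.971), Vangl2 and Ctnnbip1, and Neurod6 by Usp34 (0.956), Pak2 and Sirpa. For Tbr1 they were probe sets of the kinesin Kif5c (0.985) and the microtubule-associated protein Map1b (0.984), which had log2 changes of -1.20 and -1.37 at 1 h, and of Cyfip2 (0.981). Prox1 was followed by Cntn3 (0.975), Tm9sf3 and Gpr161, Bcl11b by Kif26b (0.983), Usp25 and Rimoc1, and Mef2c by Spire1 (0.963), Nog and Rasgef1a. The number of probe sets with r above 0.95 was 21 for Tbr1, 16 for Neurod1 and 1 for Prox1.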

How the data were processed

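Signal was measured on 9 rat arrays. The authors deposited 1 table of linear signal intensity per probe set; how it was made is not given in the sources used here. Its 2% trimmed mean is 150.05 on every array, as global scaling gives.

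Intensities were taken as log2(signal + 16), 57 control probe sets were left out, arrays were quantile normalized, and probe sets with a mean under the 40th percentile were not tested. limma 3.58.1 in R 4.3.3 fitted 1 coefficient per group over all 9 arrays (6 residual degrees of freedom, intensity trend), with Benjamini-Hochberg adjustment and a threshold of 0.05. Gene names came from the platform annotation (20826 probe sets with a single gene, 436 with several, 9780 with none); 20764 matched a rat gene table by Entrez number. No background was measured.

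Named were all member probe sets, from each list the 3 genes per comparison against control with the smallest p, and for each member the 3 genes most alike. Members and lists were chosen with earlier results of these data known. Alternatives were other scalings, pseudocounts (1, 64), filters (none, 60th percentile), no trend, array weights, a replicate block, only the compared groups, and each array left out. The labels do not say whether replicate numbers pair arrays. Deviations correlated at -0.36 to 0.54 for same-numbered arrays and at -0.43 to 0.53 for differently numbered ones. With so few pairs these ranges cannot decide the question. Simulated data for a 1 h comparison had 18625 probe sets, with settings of 10 runs and 200 changed probe sets. There the fit called 16.9% of changes of 0.5, 71.5% of changes of 1 and 94.1% of changes of 2 on the log2 scale. The measured 1 h comparison had 6 calls, so these shares may not hold for it. They also do not give the share for a member with a wide SE, such as Tbr1 (0.47).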

Additional observations from a re-analysis of the deposited data

How the results depend on the processing

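Of 654 alternative values for single member probe sets, 626 kept their direction and their side of the adjusted threshold; the causes of the others were not tested. The main setting called 6 probe sets over the whole array at 1 h, 5 at 6 h and 0 between the times. At 6 h the values as deposited gave 2, arrays centred on their medians 1 and only the compared groups 1. No filter gave 3 and 2, and array weights 25 at 1 h. Whether the replicate numbers pair the arrays is not known, and the replicate block gave 2 at 1 h and 1 at 6 h. Leaving out each array in turn gave 0 to 10 at 1 h and 1 at 6 h, and 1 to 5 negative member probe sets for 6 h minus 1 h (2 in the main setting). Alternatives chosen after seeing the data gave 0 and 1 calls with the beta-actin 3'/5' ratio as a covariate. Without ketone_1h 3 and ketone_6h 1 they gave 0 and 1 calls, and 1 negative member probe set for 6 h minus 1 h. Without ketone_6h 1 and ketone_1h 2, which had the highest ratios, 327 probe sets were called at 1 h, 1 at 6 h and 257 for 6 h minus 1 h. Only there did member probe sets pass, 2 of them at 1 h: Neurod1 (-0.67, limma adjusted p = 0.0290) and the dimmer of Mef2c (-0.95, limma adjusted p = 0.0486). The 1 h group then held 2 arrays, ketone_1h 1 and ketone_1h 3. Array ketone_1h 3 had a beta-actin ratio of 2.00 and the lowest of the 9 values for 6 of the 10 member probe sets. For the dimmer of Mef2c, the array left out at 1 h was the highest of all 9.

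Signs turned in these cases. The brighter Mef2c probe set had 0.10 at 1 h and 0.014 at 6 h as deposited, 0.21 and 0.092 with median centring, and at 1 h 0.036 with array weights and 0.037 without the arrays of highest ratio. Leaving out 1 array it ran from -0.086 to 0.037 at 1 h, -0.11 to 0.024 at 6 h and -0.086 to 0.053 for 6 h minus 1 h. The dimmer had -0.012 for 6 h minus 1 h with median centring, and -0.36 to 0.42 over arrays left out. Tbr1 had -0.10 for 6 h minus 1 h with array weights, and -0.50 to 0.42 over arrays left out. Neurod2 at 6 h was 0.010 without either pair of arrays and -0.30 to 0.0099 over arrays left out, with -0.018 to 0.36 for 6 h minus 1 h. Over arrays left out, the brightest Bcl11b probe set ran from -0.33 to 0.018 at 6 h, and the next from -0.0047 to 0.53 for 6 h minus 1 h. Neurod6 had 0.031 for 6 h minus 1 h without ketone_1h 3 and ketone_6h 1. With 3 arrays per group, low signals such as those of Tbr1 and the dimmest Bcl11b probe set limit how well a size is known.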

Other observations

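Among 2834 genes read by several tested probe sets, the dimmest probe set had the lower log2 change than the brightest in 62.4% at 1 h (median difference -0.08) and 66.7% at 6 h (median difference -0.11). For Mef2c the dimmer minus the brighter was -0.55 at 1 h and -0.51 at 6 h, and 6.92% and 6.03% of these genes had a difference at least as negative. This count was made after the Mef2c values had been seen, and the positions of the probes within the transcripts were not used here.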
